A study of Mus musculus with 24 samples.

Results

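The ATP-binding cassette (ABC) drug efflux pumps of the mouse kidney are described here through 8 genes, Abcb1a, Abcb1b, Abcc1, Abcc2, Abcc3, Abcc4, Abcc6 and Abcg2. They were chosen by symbol, as the P-glycoprotein genes, members of the multidrug resistance protein family and the breast cancer resistance protein gene, out of 56748 gene identifiers. All 8 reached the minimum for testing, a mean of 10 normalized counts over all libraries, as did 17333 identifiers in all. The samples were whole kidneys of male and female mice, collected midway through either the active or the inactive period of the day and profiled by sequencing of poly A RNA. There were 24 libraries, 6 each of active males, inactive males, active females and inactive females. The sources used here give no strain, age, genotype or light schedule and no treatment other than the period. They do not say whether each library is 1 animal, so p-values measure the spread between these libraries.

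ABC efflux pumps bind a substrate on the inner face of the membrane and use ATP to push it out of the cell. In the kidney they work in sequence with uptake carriers. Organic anions and cations enter the proximal tubule cell from the blood side, and pumps of the brush border pass drugs, conjugates, urate and cyclic nucleotides into the urine. Pumps of the basolateral membrane return conjugates to the blood. Mice carry a pair of P-glycoprotein genes, Abcb1a and Abcb1b, where humans have a single one.

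Promoter windows are shown for 2 genes that were lower in males, Abcb1b and Abcc4, and for the 2 that were higher, Abcc2 and Abcg2, so that the letters upstream of oppositely directed genes can be compared. Each window runs from 250 bases before to 50 bases after a start site, 5′ to 3′ on the strand of the gene, and comes from RefSeq on GRCm38.p6. RefSeq windows matched 5 of the 8 genes, with 8 windows in all and none for Abcc1, Abcc3 or Abcc6. The first window of each gene is printed, except that of Abcb1a, which starts 92986 bases upstream of the gene start in the annotation used here. Further start sites inside the gene, at 118676931 for Abcc4 and at 58596672 and 58640546 for Abcg2, have windows that are not printed. Apart from the D-box search, their matches are not given. Which start site was used in these kidneys was not tested. Capitals mark matches, on either strand, to the motifs spelled out after the sequences. The start sites of Abcb1b and Abcc4 coincide with the annotated gene starts, and those of Abcc2 and Abcg2 lie a short way inside the gene.
Abcb1b, chr5:8797897-8798196, plus strand: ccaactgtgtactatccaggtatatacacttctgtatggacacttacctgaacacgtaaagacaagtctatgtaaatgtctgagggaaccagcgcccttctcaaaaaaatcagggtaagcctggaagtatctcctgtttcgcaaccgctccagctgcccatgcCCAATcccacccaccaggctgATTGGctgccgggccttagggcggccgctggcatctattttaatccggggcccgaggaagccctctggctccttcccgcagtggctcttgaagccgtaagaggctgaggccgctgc
Abcc4, chr14:118706170-118706469, minus strand: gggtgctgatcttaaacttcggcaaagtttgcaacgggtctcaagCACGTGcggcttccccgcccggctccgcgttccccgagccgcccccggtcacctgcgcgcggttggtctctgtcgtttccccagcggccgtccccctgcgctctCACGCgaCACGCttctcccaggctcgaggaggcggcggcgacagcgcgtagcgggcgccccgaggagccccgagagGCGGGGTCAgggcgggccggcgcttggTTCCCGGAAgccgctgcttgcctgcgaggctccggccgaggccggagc
Abcc2, chr19:43782058-43782357, plus strand: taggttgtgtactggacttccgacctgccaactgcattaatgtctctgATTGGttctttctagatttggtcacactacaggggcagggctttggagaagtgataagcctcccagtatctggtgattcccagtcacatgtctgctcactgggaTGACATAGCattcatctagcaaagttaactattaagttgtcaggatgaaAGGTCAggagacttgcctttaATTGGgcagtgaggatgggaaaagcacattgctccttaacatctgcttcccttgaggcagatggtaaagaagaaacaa
Abcg2, chr6:58584283-58584582, plus strand: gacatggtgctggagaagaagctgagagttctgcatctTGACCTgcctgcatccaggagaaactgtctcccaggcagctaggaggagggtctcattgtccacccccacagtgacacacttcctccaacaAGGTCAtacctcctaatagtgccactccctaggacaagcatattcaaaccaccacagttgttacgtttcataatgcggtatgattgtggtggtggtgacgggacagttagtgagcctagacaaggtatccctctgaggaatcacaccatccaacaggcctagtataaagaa

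The Abcb1b window held a pair of CCAAT boxes in opposite orientation, at -87 and -66 from its start site, and no other motif searched. CCAAT was found in 37.4% of 32851 promoter windows of this length. The Abcc4 window, with 72.7% G and C, held the E-box CACGTG at -205, a site class of clock and Myc factors that 7.15% of windows hold. It also held the xenobiotic response element core GCGTG on the minus strand at -101 and -94, found in 32.4% of windows. The antioxidant response element core, searched as TGACNNNGC and found in 12.4% of windows, was at -25 on the minus strand in Abcc4 and at -98 in Abcc2. A STAT site, searched as TTCNNNGAA and found in 8.3% of windows, was at 2 in Abcc4. The nuclear receptor hexamer AGGTCA, found in 16.3% of windows, was at -49 in Abcc2 and on each strand, at -212 and -121, in Abcg2. Abcc2 held CCAAT boxes on the minus strand at -202 and -28. The D-box, searched as TTANGTAA and found in 2.32% of windows, was in none of the 8 windows, which says only that these letters are not there. No matches of different motifs overlapped in the printed windows. A match is a description of the letters and not of a bound site.

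The labelled sex matched the RNA in every library. Ddx3y, a Y-linked helicase gene, had 1379 normalized counts or more in 12 male libraries and 4.96 or fewer in 12 female ones. Xist, which silences an X chromosome, had 18.4 or fewer in males and 25439.7 or more in females. These and all values here are counts normalized by the authors. Between 31.04 and 39.3 M reads per library were recovered from the table. The normalized totals were 35.97 to 39.5 M in males and 29.6 to 32.4 M in females. Differences were tested with limma on log2(normalized count + 1), all 24 libraries in one fit, and called at an adjusted p under 0.05. Fold changes are on that scale and are given ± SE, and levels are mean ± SD with n = 6 libraries per group.

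Males and females differed in 7 of the 8 pump genes in each period. In active kidneys 2 pumps were higher in males, 5 were lower and 1 did not pass, where 60.6% of all tested genes were called (30.1% higher and 30.5% lower). In inactive kidneys the counts were again 2, 5 and 1, where 55.7% were called (27.9% higher and 27.8% lower). The median log2 fold change, male over female, was -1.21 over the 8 pumps and -0.05 over all tested genes in active kidneys, and -1.03 over the pumps and -0.04 over all genes in inactive kidneys. Abcc3, Abcb1b, Abcb1a and Abcc4 were lower in males by more than 2-fold in both periods, a size reached by 10.1% of all genes among those called in active kidneys and 8.69% in inactive kidneys. Groups did not overlap for 7 pumps in active kidneys, against 36.3% of all genes, and for 6 in inactive kidneys, against 32.3%. Scaling all libraries to equal totals moved the median of all genes by -0.27 in active and -0.28 in inactive kidneys and changed the balance of calls. In active kidneys 2635 genes were then higher and 8822 lower in males, where the main scale gave 5219 and 5290, and in inactive kidneys 2051 were higher and 9054 lower, where it gave 4844 and 4818. The 7 called pumps kept their direction under that scaling in both periods. In bulk kidney, fewer cells of a type and less RNA per cell cannot be told apart.

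**Figure D1:**
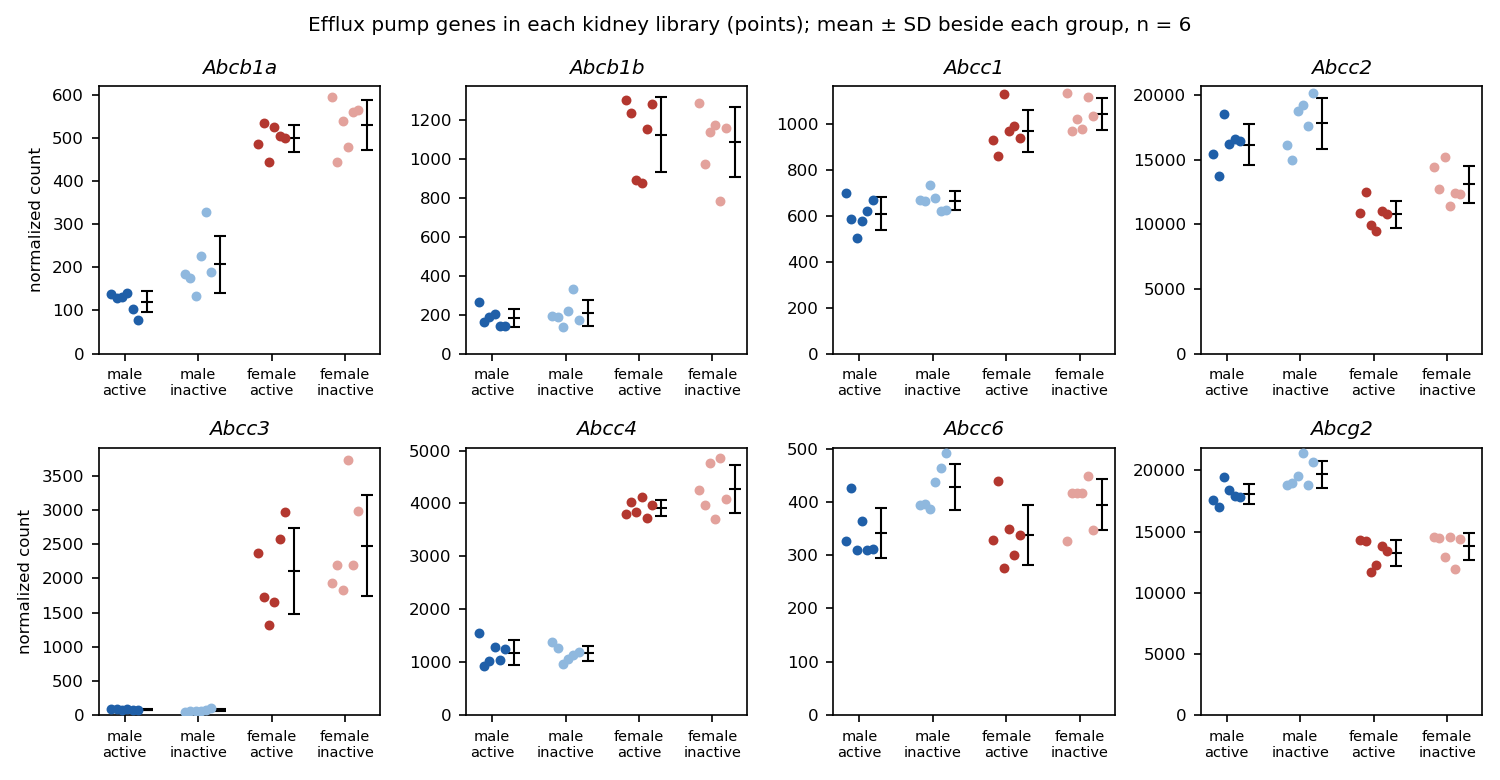
Normalized counts (y axis, linear, from 0) of the 8 pump genes in each library, with males left of females and the active period left of the inactive one; points are libraries and the bar beside each group is the mean ± SD, n = 6. Male libraries of Abcc3 span 50.8 to 96.0 and no female library is under 1324, while Abcc6 has overlapping groups throughout.

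Abcc3 (ENSMUSG00000020865, chr11:94343295-94392997 on the minus strand of GRCm38), a basolateral pump that returns glucuronide conjugates to the blood, had the largest difference. In active males its lowest, median and highest library had 71.0, 81.4 and 88.0 normalized counts, and in active females 1324, 2046 and 2965. In inactive males they had 50.8, 64.9 and 96.0, and in inactive females 1827, 2197 and 3731. Every male library lay far below every female one, and the female libraries of a group themselves spread by about 2-fold. Mean levels were 26.3-fold lower in active males than in active females (log2 fold -4.65 ± 0.19, adjusted p = 5.33e-16, limma). They were 36.2-fold lower in inactive males than in inactive females (log2 fold -5.14 ± 0.19, adjusted p = 9.00e-17, limma). Between 44 and 3692 reads per library stood behind these values.

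The P-glycoprotein genes Abcb1a (ENSMUSG00000040584, chr5:8660077-8748575 on the plus strand of GRCm38) and Abcb1b (ENSMUSG00000028970, chr5:8798147-8866315 on the plus strand of GRCm38) encode closely related apical pumps for bulky, mostly hydrophobic drugs. Abcb1b had 141, 175 and 267 normalized counts in the lowest, median and highest active male library and 876, 1191 and 1301 in active females. In inactive kidneys it had 138, 188 and 332 in males and 783, 1147 and 1287 in females. Male and female libraries did not overlap in either period. Abcb1b was 6.11-fold lower in active males (log2 fold -2.62 ± 0.18, adjusted p = 8.16e-12, limma) and 5.26-fold lower in inactive males (log2 fold -2.43 ± 0.18, adjusted p = 4.51e-11, limma).

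Abcb1a had 78.5, 129.5 and 141 normalized counts in the lowest, median and highest active male library and 445, 504 and 535 in active females. In inactive kidneys it had 134, 187 and 329 in males and 446, 550.2 and 596 in females. Here too no male library reached a female one, though the highest inactive male came closest. Abcb1a was 4.16-fold lower in active males (log2 fold -2.07 ± 0.15, adjusted p = 9.16e-13, limma) and 2.57-fold lower in inactive males (log2 fold -1.40 ± 0.15, adjusted p = 4.02e-09, limma).

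The genes of this pair share sequence, which bears on how reads are divided between them. Of all 50-base stretches of Abcb1a transcripts 16.3% occur in Abcb1b, and of those of Abcb1b 11.1% occur in Abcb1a, while Abcc1, Abcc2, Abcc3, Abcc6 and Abcg2 share none with another ABC gene. Stretches shared with Abcb4 were 2.33% for Abcb1a and 0.822% for Abcb1b. The sum of both genes does not depend on the division between them if each shared read was counted once. Reads counted for neither gene or for both would change the sum, and how they were handled is not given in the sources used here. It ranged over 221 to 405 normalized counts in active males and 1335 to 1788 in active females, and over 272 to 662 in inactive males and 1343 to 1883 in inactive females. The predicted gene Gm42686 covers 10.09% of the exon bases of Abcb1a on the opposite strand. It had a mean of 2.38 normalized counts, and whether reads were counted by strand is not given in the sources used here.

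Abcc4 (ENSMUSG00000032849, chr14:118482692-118706219 on the minus strand of GRCm38) encodes an apical pump of the proximal tubule for cyclic nucleotides, urate and nucleotide-like drugs. In active males its lowest, median and highest library had 918, 1149 and 1551 normalized counts, and in active females 3730.1, 3903 and 4117. In inactive males it had 966, 1169.6 and 1379, and in inactive females 3712, 4170 and 4860.5. The groups lay well apart in both periods, and active females varied least among themselves. Abcc4 was 3.32-fold lower in active males (log2 fold -1.75 ± 0.10, adjusted p = 4.74e-14, limma) and 3.67-fold lower in inactive males (log2 fold -1.88 ± 0.10, adjusted p = 1.48e-14, limma).

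Abcc1 (ENSMUSG00000023088, chr16:14361558-14475737 on the plus strand of GRCm38), a basolateral pump for glutathione conjugates such as leukotriene C4, differed less. Active males had 504, 602 and 699 normalized counts in the lowest, median and highest library, and active females 858, 953 and 1132. Inactive males had 620.4, 666 and 733, and inactive females 969.9, 1026 and 1133. The male and female libraries did not overlap in either period. Abcc1 was 1.59-fold lower in active males (log2 fold -0.67 ± 0.07, adjusted p = 3.33e-09, limma) and 1.57-fold lower in inactive males (log2 fold -0.65 ± 0.07, adjusted p = 9.18e-09, limma).

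The 2 pumps that were higher in males were also the most abundant ones. Abcg2 (ENSMUSG00000029802, chr6:58584523-58695676 on the plus strand of GRCm38), the breast cancer resistance protein, is an apical pump for urate, sulfate conjugates and many drugs. It had 17035, 17881 and 19469 normalized counts in the lowest, median and highest active male library and 11659, 13591 and 14277 in active females. Inactive males had 18791, 19236 and 21387, and inactive females 11902, 14413.5 and 14533. Every male library lay above every female one. Abcg2 was 1.36-fold higher in active males (log2 fold 0.45 ± 0.06, adjusted p = 6.29e-08, limma) and 1.43-fold higher in inactive males (log2 fold 0.52 ± 0.06, adjusted p = 5.25e-09, limma). The size depends on the scaling, and over all alternatives the log2 fold went as low as 0.17 in active and 0.24 in inactive kidneys.

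Abcc2 (ENSMUSG00000025194, chr19:43782192-43840740 on the plus strand of GRCm38) encodes an apical pump for glutathione and glucuronide conjugates. It had 13727, 16339 and 18556 normalized counts in the lowest, median and highest active male library and 9475, 10840.1 and 12505 in active females. Inactive males had 14971, 18222 and 20178, and inactive females 11457, 12592 and 15237. The sexes did not overlap in active kidneys, and in inactive kidneys the ranges met at their edges. Abcc2 was 1.50-fold higher in active males (log2 fold 0.58 ± 0.08, adjusted p = 2.89e-07, limma) and 1.36-fold higher in inactive males (log2 fold 0.44 ± 0.08, adjusted p = 2.46e-05, limma). With equal totals the inactive difference of Abcc2 was 0.16 on the log2 scale and no longer passed (adjusted p = 0.0688, limma), the highest over all alternatives. The active difference of Abcc2 went as low as 0.31 over all alternatives.

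Abcc6 (ENSMUSG00000030834, chr7:45967555-46030302 on the minus strand of GRCm38) encodes a pump known for the ATP release that feeds plasma pyrophosphate, and its loss causes ectopic mineralization. It did not pass between the sexes. Active males averaged 341 ± 46.9 normalized counts and active females 338 ± 56.0 (SD, n = 6 each), with a log2 fold of 0.02 (95% interval -0.20 to 0.23, adjusted p = 0.896, limma). Inactive males averaged 428 ± 43.2 and inactive females 395 ± 47.2, with a log2 fold of 0.12 (95% interval -0.10 to 0.33, adjusted p = 0.345, limma). Both intervals leave out a 1.5-fold difference on the main scale. With equal totals Abcc6 was called lower in active males (log2 fold -0.26, adjusted p = 0.0326, limma), the only alternative in which it passed between the sexes.

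Markers of kidney cell types moved with sex beside the pumps. Endothelial markers, of cells that are also known to carry P-glycoprotein, were lower in males for 7 of 8 genes in active and 8 of 8 in inactive kidneys. Their summed level was 13188 to 15670 normalized counts in active males and 18134 to 23962 in active females, and 9025 to 15029 in inactive males and 15547 to 21485 in inactive females. All 5 podocyte markers were lower in males in both periods, with sums of 8678 to 10321 in active males and 16420 to 17839 in active females. Late proximal tubule markers were higher in males for 4 of 5 genes in both periods, with sums of 113287 to 135000.0 in active males and 15791 to 26829 in active females. Of 8 markers of the proximal tubule, the segment in which most of these pumps are known, 4 were higher and 4 lower in males in both periods. Their median log2 fold, male over female, was 0.13 in active and -0.0045 in inactive kidneys. Their summed level did not overlap between the sexes. It was 451674 to 506503 in active males and 281842 to 346744 in active females. In inactive kidneys it was 464827 to 490499.7 in males and 320627 to 370748 in females. The sum is weighted by the most abundant markers, above all Slc27a2, with a mean of 163330 normalized counts over all libraries. Among the pumps, Abcg2 and Abcc2 were higher in males in both periods, while Abcc1, Abcc3, Abcc4, Abcb1a and Abcb1b were lower. Of 6 smooth muscle, pericyte and fibroblast markers 4 were lower in active and 6 in inactive males, and of 4 thick ascending limb markers 4 were lower in active and 2 in inactive males. Of 6 adrenal and perirenal fat markers, Cyp11b1 and Cyp11b2 had means under 1 normalized count in every group. The other 4 were present, with means over all libraries of 189 for Star, 126 for Adipoq, 2709 for Fabp4 and 97.9 for Plin1. In each period 1 of these 4 was lower in males and 3 did not pass. The summed level of the list was 1644 to 4624 in active males and 1951 to 6029 in active females. The part of these cell types in the pump differences was not tested.

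**Figure D2:**
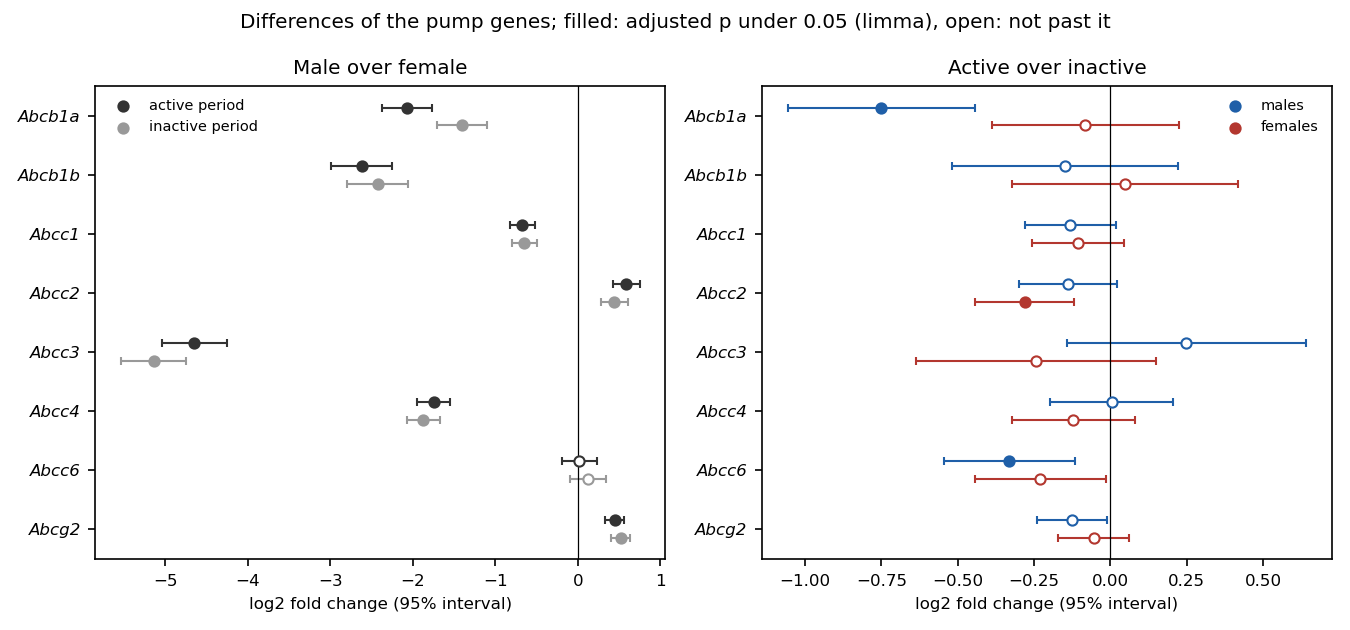
Log2 fold changes (x axis) of the 8 genes (y axis) with 95% intervals, male over female at left and active over inactive at right; filled points passed an adjusted p under 0.05 and open points did not. The sex differences span -5.14 to 0.58, while the largest period change is -0.75, of Abcb1a in males.

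The periods differed in few pump genes. In males 2 pumps were lower in the active period, Abcb1a and Abcc6, none was called higher and 6 did not pass, where 15.4% of all genes were called (8.43% higher and 6.95% lower). In females Abcc2 was lower, none was called higher and 7 did not pass, where 15.0% were called (7.97% higher and 6.98% lower). The shares of pumps called, 2 of 8 and 1 of 8, are near these backgrounds. The median log2 fold change, active over inactive, was -0.13 over the pumps and 0.01 over all genes in males, and -0.11 over the pumps and -0.0016 over all genes in females. The pump groups overlapped for all 8 genes in both sexes, where 4.29% of all genes did not overlap in males and 7.83% in females.

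Abcb1a had the largest period change. Active males had 78.5 to 141 normalized counts around a median of 129.5, and inactive males 134 to 329 around 187. The ranges share only the stretch between the lowest inactive and the highest active library. Abcb1a averaged 120.2 ± 24.2 in active males and 207 ± 66.9 in inactive males (SD, n = 6 each), 1.72-fold lower (log2 fold -0.75 ± 0.15, adjusted p = 0.00112, limma), and it passed with each library left out in turn. In females Abcb1a averaged 500.2 ± 32.05 in the active and 531 ± 57.2 in the inactive period, with a log2 fold of -0.08 (95% interval -0.39 to 0.22, adjusted p = 0.787, limma). The male change minus the female change was -0.67 ± 0.21 on the log2 scale and did not pass (adjusted p = 0.0794, limma), so the sexes were not shown to differ. It passed in DESeq2 on recovered reads (adjusted p = 0.0207) and without inactive male replicate 3 (adjusted p = 0.0359, limma), and its adjusted p ran from 0.0207 to 0.135 over all alternatives.

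In the same comparison of males 4 of 8 endothelial markers were higher in the active period and none was lower, where 8.43% of all tested genes were higher. Their sums were 13188 to 15670 normalized counts in active and 9025 to 15029 in inactive males. Summed proximal tubule markers were 451674 to 506503 in active and 464827 to 490499.7 in inactive males, with overlapping groups. Their part in the change of Abcb1a was not tested.

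Abcc2 averaged 10784 ± 1042 normalized counts in active females and 13115 ± 1433 in inactive females (SD, n = 6 each), 1.22-fold lower (log2 fold -0.28 ± 0.08, adjusted p = 0.0142, limma). In males its averages were 16180.2 ± 1578 in the active and 17835 ± 1979 in the inactive period, with a log2 fold of -0.14 (95% interval -0.30 to 0.02, adjusted p = 0.240, limma). The change of Abcc2 passed in females and not in males, and the difference between the sexes, 0.14 ± 0.11, did not pass (adjusted p = 0.516, limma).

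Abcc6 averaged 341 ± 46.9 normalized counts in active males and 428 ± 43.2 in inactive males (SD, n = 6 each), 1.26-fold lower (log2 fold -0.33 ± 0.11, adjusted p = 0.0304, limma). This call lies near the threshold. It did not pass without active male replicate 3, 5 or 6 or inactive male replicate 4, 5 or 6, where the highest adjusted p was 0.0843, nor with no filter on low values (adjusted p = 0.0604, limma). In females the log2 fold of Abcc6 was -0.23 ± 0.11 (adjusted p = 0.149, limma), and of all alternatives it passed without active female replicate 2 (adjusted p = 0.0384, limma).

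The other 5 pumps passed in neither sex. Their log2 folds, active over inactive, ran between -0.15 for Abcb1b and 0.25 for Abcc3 in males, and between -0.24 for Abcc3 and 0.05 for Abcb1b in females. The 95% intervals for Abcc1, Abcc4 and Abcg2 were narrow and lay between -0.32 and 0.21 on the log2 scale in both sexes. That of Abcb1b was wider, from -0.52 to 0.22 in males and from -0.32 to 0.42 in females. That of Abcc3 reached 0.64 in males and -0.64 in females, so the intervals leave in changes of up to that size. None of the 8 pumps passed the test of the difference between the sexes in the period change, where 2.71% of all genes did. At an unadjusted p under 0.05 in limma 1 of the 8 did, Abcb1a, and after adjustment 0 did in edgeR and 1, again Abcb1a, in DESeq2. The same test asks whether the sex difference changed with the period.

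**Figure D3:**
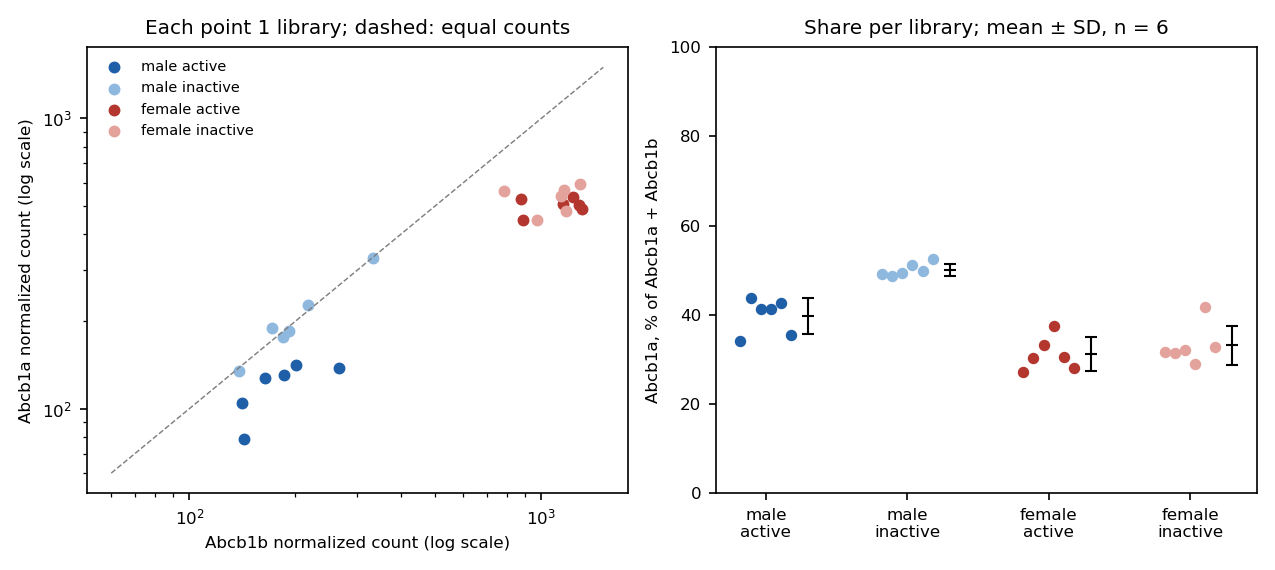
Left, Abcb1a against Abcb1b normalized counts (both axes logarithmic), each point 1 library and the dashed line equal counts; right, Abcb1a as a percentage of both (y axis from 0 to 100), points for libraries with mean ± SD, n = 6. Active males lie below the line at 34.1% to 43.8%, and inactive males near it at 48.8% to 52.4%, in counts not scaled for exon length.

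The make-up of the P-glycoprotein pair was as follows in the 4 groups. Abcb1a made up 39.8% ± 3.97 of the normalized counts of both genes in active males, 50.1% ± 1.39 in inactive males, 31.2% ± 3.77 in active females and 33.1% ± 4.40 in inactive females (SD, n = 6 each). The male libraries of the periods did not overlap, at 34.1% to 43.8% in active and 48.8% to 52.4% in inactive males. Female libraries ranged over 27.2% to 37.5% in the active and 29.01% to 41.7% in the inactive period, overlapping each other and the active males. These shares are of counts not scaled for exon length, and Abcb1a has fewer exon bases than Abcb1b. Per kilobase of exon the share of Abcb1a was 49.0% in active males, 59.4% in inactive males, 39.7% in active females and 41.9% in inactive females. These shares are a description with no test, and they depend on how reads of the shared stretches were counted.

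Between genes, levels are compared as normalized counts per kilobase of exon. Abcg2 was highest and Abcc2 next in all 4 groups, with overlapping ranges. Per kilobase, Abcg2 had 2214 ± 101 in active males, 2416 ± 135 in inactive males, 1627 ± 132 in active females and 1690.4 ± 137 in inactive females. Abcc4 was the third in all groups, at 185 ± 36.01 per kilobase in active males, 183 ± 23.0 in inactive males, 613 ± 23.1 in active females and 669 ± 71.0 in inactive females. The order below differed by sex. In females Abcc3 was the fourth, at 369 ± 111 per kilobase in active and 435 ± 129 in inactive kidneys, followed by Abcb1b and Abcb1a, with Abcc1 and Abcc6 lowest and overlapping. In males Abcc6 was the fourth, followed by Abcc1, and Abcc3 was last, at 14.02 ± 1.24 per kilobase in active and 12.0 ± 2.95 in inactive kidneys. Several neighbours in these orders had overlapping ranges. These were Abcb1a and Abcb1b in active males, inactive males and inactive females, Abcb1a and Abcc3 in active males, Abcc1 and Abcb1a in inactive males, and Abcc4 and Abcc3 in inactive females.

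**Figure D4:**
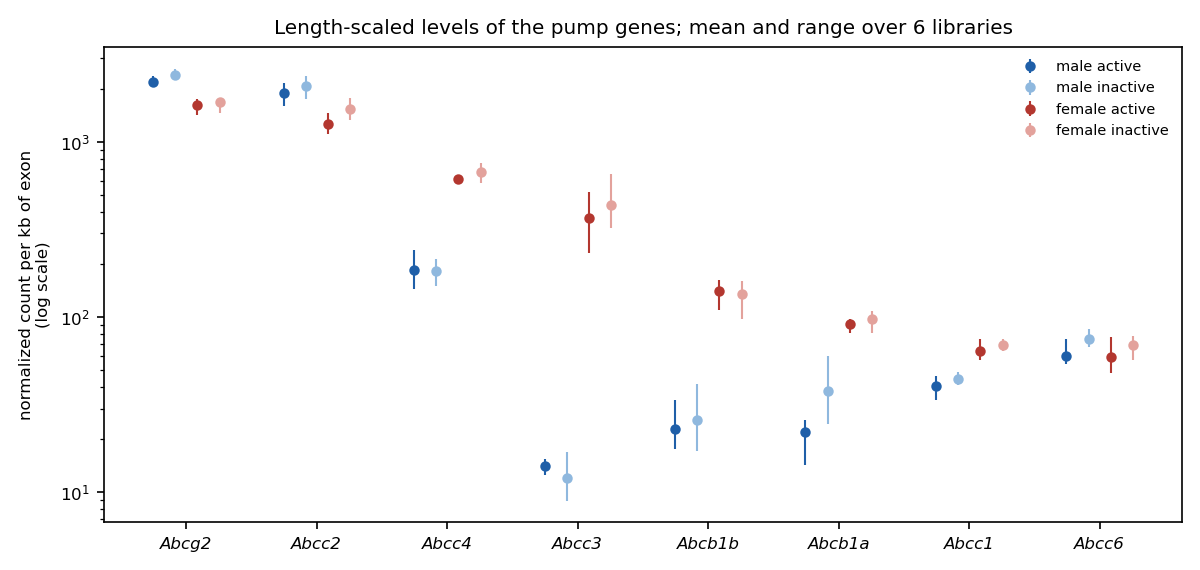
Normalized count per kilobase of exon (y axis, logarithmic) of the 8 genes, ordered by their level in active females, with points for group means and lines for the range over 6 libraries. Abcg2 and Abcc2 have group means of 1264 or more, while Abcc4, Abcc3, Abcb1b and Abcb1a lie lower in both male groups than in both female groups.

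Of the summed per-kilobase level of the 8 pumps, Abcc2 and Abcg2 together made up 92.3% ± 1.11 in active males and 68.4% ± 1.73 in active females, and 92.2% ± 0.944 in inactive males and 68.6% ± 2.34 in inactive females (SD, n = 6 each). Abcb1a, Abcb1b, Abcc3 and Abcc4 made up 5.48% ± 0.972 in active males and 28.7% ± 1.82 in active females, and 5.32% ± 0.859 in inactive males and 28.5% ± 2.22 in inactive females. By this measure most pump RNA came from the pair of abundant apical pumps in both sexes, with the larger share in males. The first set holds the pumps called higher in males and the second those more than 2-fold lower, in these same data. No male library overlapped a female one in either share, which the choice of sets builds in. The shares are a description with no test.

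For each pump, the genes with the most similar pattern were found as those with the smallest root mean square difference from it over 24 libraries, on the log2 scale with each gene centred on its own mean. Slc22a29, an anion transporter family member, and Prlr, the prolactin receptor, came nearest to Abcc3, at 0.526 and 0.634 against the spread of 2.47 of Abcc3 about its own mean. Elovl6, which elongates fatty acids, was among the nearest to both Abcb1a, at 0.345 against a spread of 0.946, and Abcc4, at 0.168 against 0.923. The others nearest were Zim1 to Abcb1a at 0.345 and Mgat4a to Abcc4 at 0.162. For Abcb1b, Gbp3 lay at 0.309 against a spread of 1.30. For Abcg2, Gphn and the glutamate carrier Slc1a1 lay at 0.0683 and 0.0717 against 0.262, and for Abcc2, Osbpl6 and Entpd5 lay at 0.107 and 0.117 against 0.311. Nearest to Abcc1 were Sorbs2 at 0.125 and Chd7 at 0.129 against 0.354, and to Abcc6 Gabarapl1 at 0.156 and Mfsd2b at 0.163 against 0.225. For pumps with a large sex difference the measure mostly follows sex, so these names show likeness of pattern over the 4 groups only.

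Among other ABC genes as many were higher as were lower in males, a balance near that of all tested genes. Of 45 other ABC transporter genes 35 were tested. In active kidneys 13 were higher in males, 13 were lower and 9 did not pass, with a median log2 fold of -0.01, and in inactive kidneys the counts were 12, 12 and 11, with a median of -0.15. Abcc5, a pump for cyclic nucleotides outside the 8 genes, averaged 1512 ± 197 normalized counts in active males and 2904 ± 275 in active females (log2 fold -0.95 ± 0.07, adjusted p = 1.23e-12, limma). The mitochondrial transporter gene Abcb8 was higher in active males (log2 fold 0.86 ± 0.08, adjusted p = 1.99e-10, limma), and the lipid transporter family members Abca8a and Abca8b were lower in inactive males (log2 folds -1.28 ± 0.17 and -1.28 ± 0.18, adjusted p = 6.64e-07 and 7.50e-07, limma). Between the periods 15.4% of all tested genes were called in males and 15.0% in females. Of the 35, 4 were higher and 3 lower in active males, and 4 higher and 4 lower in active females. The called ones with the smallest p were Abca4, a retinoid transporter known from the eye, at -0.74 ± 0.15 in males (adjusted p = 0.00121, limma) and Abcd4, a transporter of lysosomal cobalamin, at -0.63 ± 0.09 in females (adjusted p = 4.48e-06, limma). Abce1, a ribosome recycling factor, was the only one of the 35 to pass the test of the difference between the sexes in the period change (log2 -0.28 ± 0.07, adjusted p = 0.0281, limma).

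**Figure D5:**
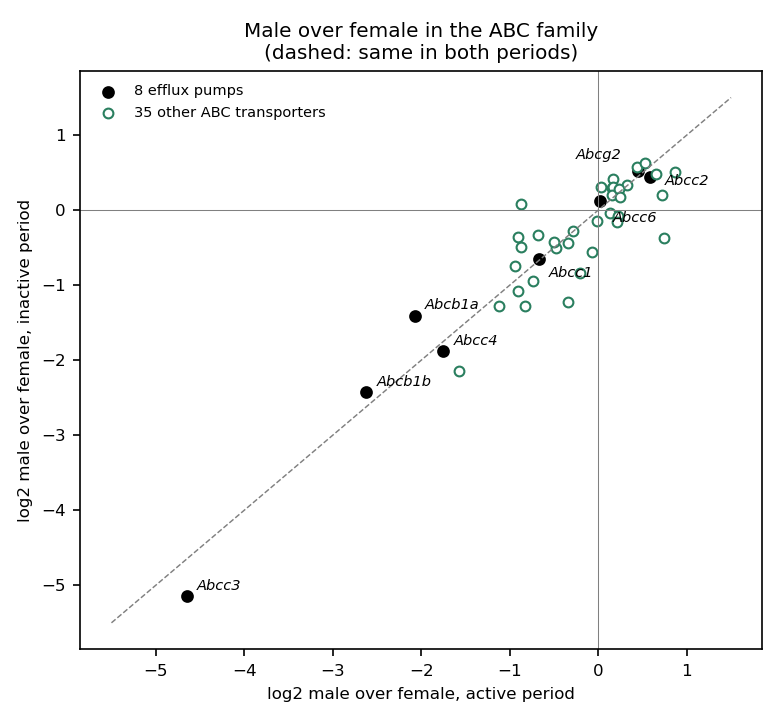
Log2 fold change, male over female, in the active period (x axis) and the inactive period (y axis) for the 8 efflux pumps (filled) and 35 other ABC transporters (open); the dashed line marks equal values. Abcc3, Abcb1b, Abcc4 and Abcb1a lie at -1.40 or lower on both axes, and Abcc2 and Abcg2 lie at 0.44 or higher.

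Other organic ion carriers, among them uptake carriers and the MATE exchanger, supply or complement the pumps in moving organic ions across the tubule. Of 11 such genes tested, 10 were higher in active males and none was lower (median log2 fold 1.40), and 10 were higher and 1 lower in inactive males (median 1.48). Slc22a2, the cation carrier OCT2, averaged 13534 ± 1829.6 normalized counts in active males and 4267 ± 600.3 in active females (log2 fold 1.67 ± 0.10, adjusted p = 1.22e-13, limma). Slc47a1, the exchanger MATE1, averaged 27252 ± 1421 in active males and 16156 ± 1073 in active females (log2 fold 0.76 ± 0.05, adjusted p = 1.59e-14, limma). Slco1a1, an anion carrier, averaged 28818 ± 2687 in active males and 1.57 ± 1.84 in active females. In the period comparison 1 of 11 was called in males, against 15.4% of all tested genes. It was Slc22a8, which was higher in the active period (log2 fold 0.28 ± 0.09, adjusted p = 0.0329, limma). In females 1 of 11 was called, against 15.0% of all tested genes. It was Slco1a1, with 1.57 ± 1.84 in the active and 8.49 ± 6.29 in the inactive period. Both female means are under the filter of 10, which Slco1a1 passed only through its male level, so nothing is read from that call.

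Of 10 genes of the Nrf2 response and of glutathione supply, which feeds the conjugates that Abcc1 and Abcc2 carry, 8 were higher in active males and 9 in inactive males, and none was lower (median log2 folds 0.53 and 0.78). Of all tested genes 30.1% were higher in active and 27.9% in inactive males. Ggt1, which breaks down glutathione at the brush border, averaged 46429 ± 8141 normalized counts in active males and 14834 ± 1459.8 in active females (log2 fold 1.63 ± 0.09, adjusted p = 4.59e-15, limma). Gss, glutathione synthetase, was higher by 1.30 ± 0.06 in active males (adjusted p = 7.73e-17, limma). Between the periods 15.4% of all tested genes were called in males and 15.0% in females. In the active period 1 of the 10 was called in males, Txnrd1 (log2 fold 0.15 ± 0.05, adjusted p = 0.0259, limma). In females 3 were called higher, Srxn1, Txnrd1 and Hmox1, and Hmox1, a heme-degrading enzyme, averaged 757 ± 281 in the active and 371 ± 75.5 in the inactive period (log2 fold 0.97 ± 0.19, adjusted p = 8.49e-04, limma).

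Of 17 tested genes for xenobiotic and hormone receptors and their partners, 8 were higher and 7 lower in active males, and 9 higher and 7 lower in inactive males. Prlr averaged 285 ± 175 normalized counts in active males and 11342 ± 2862 in active females (log2 fold -5.49 ± 0.37, adjusted p = 4.58e-11, limma). Hnf4a, a nuclear receptor of the proximal tubule, averaged 29864 ± 2209 in active males and 18148 ± 923 in active females (log2 fold 0.72 ± 0.05, adjusted p = 1.48e-12, limma). Nr1h4, the bile acid receptor FXR, averaged 7235 ± 738 in inactive males and 2724 ± 113 in inactive females (log2 fold 1.40 ± 0.12, adjusted p = 5.49e-10, limma). Between the periods 2 of 17 were higher and 4 lower in active males, and 1 was lower in active females, where 15.4% and 15.0% of all tested genes were called. The gene called in females was Ppara, the receptor for fatty acids, which was also lower in active males (log2 folds -0.57 ± 0.11 in males and -0.54 ± 0.11 in females, adjusted p = 8.43e-04 and 8.03e-04, limma).

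The PDZ and ERM proteins tether apical transporters to the brush border skeleton. Of 8, 4 were higher and 2 lower in active males, and 3 higher and 3 lower in inactive males. Slc9a3r1 (NHERF1) averaged 12875 ± 1619 normalized counts in active males and 6238 ± 371 in active females (log2 fold 1.04 ± 0.06, adjusted p = 3.90e-15, limma), and Pdzk1 was higher in active males by 0.58 ± 0.07 (adjusted p = 1.23e-07, limma). In the period comparison 3 of 8 were higher in active males, among them Slc9a3r2 (log2 fold 0.62 ± 0.09, adjusted p = 1.95e-05, limma). In active females 1 was higher and 2 were lower, among them Msn (log2 fold -0.33 ± 0.07, adjusted p = 8.27e-04, limma). The shares of all tested genes called were 15.4% in males and 15.0% in females.

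The clock output factors Dbp, Tef and Hlf bind the D-box, and Nfil3 represses through it. Dbp and Nfil3 had larger period changes than any of the 8 pumps. Dbp averaged 149.7 ± 75.3 normalized counts in active males and 1668 ± 164 in inactive males (log2 fold -3.59 ± 0.22, adjusted p = 5.13e-10, limma), and 70.4 ± 15.2 in active females and 2147 ± 429 in inactive females (log2 fold -4.91 ± 0.22, adjusted p = 5.15e-13, limma). Nfil3 was higher in the active period, by 1.75 ± 0.21 in males (adjusted p = 7.45e-06, limma) and 2.28 ± 0.21 in females (adjusted p = 5.91e-08, limma). Of the 4 factors 1 was higher and 2 lower in active males, and 1 higher and 3 lower in active females. The shares of all tested genes called were 15.4% in males and 15.0% in females. Dbp and Tef passed the test of the difference between the sexes (1.32 ± 0.31 and 0.63 ± 0.13 on the log2 scale, adjusted p = 0.0242 and 0.0128, limma).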

How the data were processed

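Kidney poly A RNA of 24 libraries was analysed from a table of normalized gene counts. The signal values were made by the authors as gene counts divided by 1 size factor per library, as the values themselves show. Per the submitters' processing notes, the tools were DESeq2 1.28.1, Subread 2.0.6 with featureCounts, and Trim Galore 0.6.10, used with GRCm39. Their order, the annotation release, the strand setting and any filter were not given in the sources used here. Of 56748 identifiers, 52073 had a symbol in the reference annotation and held 99.2% of the signal. Coordinates and exon lengths come from that annotation, on the older build GRCm38, and not from the files.

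Whole reads were recovered by dividing by the step between values, and 100.0% were whole within 0.05 in every library; they served edgeR and DESeq2 only. Recovered depth was 31.04 to 39.3 M reads per library, and counting error is part of each SD. No libraries held identical values.

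Genes with a mean of at least 10 normalized counts were tested with limma 3.58.1 in R 4.3.3 on log2(normalized count + 1), with a trended and robust variance prior, all 24 libraries in one fit and 20 residual degrees of freedom. The 5 contrasts were active over inactive in males and in females, their difference, and male over female in each period, with Benjamini-Hochberg adjustment per contrast over 17333 genes and 2-sided tests. The method was tested on simulated data.

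Named were the 8 pumps, up to 3 called genes with the smallest p per list and contrast, of which some are given, and the 2 genes nearest to each pump, model identifiers left out; 1 gene so picked is not reported here. Members and lists were chosen with earlier results of these data known. Alternatives were pseudocounts of 0.5 and 5, no filter, TMM, upper quartile and equal-total scaling, edgeR 4.0.16 and DESeq2 1.42.0 on recovered reads, a plain prior, library weights, only the 2 groups compared, each library left out, and the title number as a block.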

Additional observations from a re-analysis of the deposited data

How the results depend on the processing

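The 7 pumps called between the sexes in each period kept their call and direction under every alternative tried, including each library left out, except Abcc2 in inactive kidneys with equal totals (log2 0.16, adjusted p = 0.0688, limma). That scaling moves all male over female values down, and it gave Abcc6 log2 folds of -0.26 in active and -0.16 in inactive males and Hlf -0.0067 in active males, all of the other sign. Abcc6 in active males was also negative with upper quartile scaling (-0.057) and library weights (-0.0074), and ranged from -0.049 to 0.095 with each library left out. Between the periods in males, Abcc4 was at -0.021 with upper quartile scaling and at -0.023 with equal totals. Abcc4 ranged from -0.078 to 0.073 there with each library left out, and Abcb1b from -0.26 to 0.00089. Abcb1b in females ranged from -0.043 to 0.12, and the sex difference in the period change of Abcc1 from -0.066 to 0.028. Of these values only that of -0.26 passed (adjusted p = 0.0326, limma). Abcg2 passed between the periods in males with equal totals (adjusted p = 0.0261, limma). With each library left out, 1 to 2 pumps were called between the periods in males, 1 to 2 in females and 0 to 1 for the difference between the sexes. With no filter on low values 1 pump was called in males, Abcb1a. Genes called between the periods in males numbered 1756 with only the 2 groups compared, against 2665. Under equal totals they were 1130 higher and 1458 lower in males and 1019 higher and 1570 lower in females, and under upper quartile scaling 1181 higher and 1521 lower in males, against 1461 and 1204 in males and 1382 and 1210 in females. For the difference between the sexes in the period change, 470 genes were called, against 247 with no filter, 289 with a plain prior, 946 in DESeq2 (with 1 pump, Abcb1a) and 276 to 780 with each library left out. The count was 780 without active male replicate 1, 276 without active female replicate 4, 293 without inactive female replicate 2, 290.0 without inactive female replicate 3 and 293 without inactive male replicate 3. The Abcb1a share per kilobase of exon was 49.0% in active males, 59.4% in inactive males, 39.7% in active females and 41.9% in inactive females. Of 2308 alternative values for 65 results of the other listed genes, 2245 kept direction and call, 62 no longer passed and 1, Hlf, changed sign. The cause was not tested for any of these changes.

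With the title number as a replicate block, 7 pumps and 10297 genes were called between the sexes in active kidneys, 7 pumps and 9448 genes in inactive kidneys, and 0 pumps and 531 genes for the difference in the period change. The numbers share no stated link: over 12 same-numbered pairs the correlation of deviations ran from -0.104 to 0.124, 1 was over 0.1, and 4 pairs correlated best with their own number. Depth limits Abcc3 in males most, where 44 reads were the fewest behind a value, and Abcb1a, with 71.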
